A study of Homo sapiens with 8 samples.

Results

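The antioxidant genes of the NRF2 pathway were followed in Panc10.05 cells, before and after resistance to indisulam was acquired, with HMOX1 as the gene that drew attention to them. The 9 genes were HMOX1, NQO1, GCLM, GCLC, TXNRD1, SRXN1 and SLC7A11 with the regulators NFE2L2 and KEAP1, out of 60675 genes listed per library. They were found by symbol through their Ensembl identifiers. The group was selected on 1 measured value, the rise of HMOX1 on the drug in resistant cells, which was the largest among well-expressed genes. For that reason values in the resistant drug response are given as a description with no p, and counts of calls there stand only beside the shares over all genes. All 9 passed the filter on low counts, as did 16661 genes in all, although SRXN1 did so with only 5 to 12 reads per library.

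Panc10.05 is an established cell line from a human pancreatic cancer. Indisulam is a sulfonamide that acts as a molecular glue between the splicing factor RBM39 and a ubiquitin ligase with DCAF15, and so causes the loss of RBM39 protein. The 8 libraries fell into 4 groups of 2. Parental cells were left untreated or received 2 µM indisulam for 18 h. The resistant cells, a single derivative of the line raised over months on rising doses, were either kept on 2 µM indisulam or taken off it for a week before harvest, which is the resistant untreated group. Both resistant groups therefore share the history of selection on the drug, and the on-drug groups of both lines differ in the length of exposure. The growth notes name A549, a lung cancer line, whereas the sample titles, which were followed, give Panc10.05 throughout. The study describes the 2 libraries of a group as technical replicates, so p-values measure the spread between these libraries and not between cultures.

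NRF2, the protein made from NFE2L2, is a transcription factor that is continuously destroyed in unstressed cells. KEAP1 holds it for a ubiquitin ligase built on CUL3, and electrophiles or oxidants that modify KEAP1 let NRF2 accumulate, pair with small MAF proteins and bind antioxidant response elements. BACH1 competes for the same elements, and HMOX1 is the gene best known to be held down by it. The pathway is often active in pancreatic cancer. NFE2L2 and KEAP1 transcript levels are not a measure of NRF2 activity, which is set largely at the protein level.

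The antioxidant response element was looked for in promoters as the letters TGACNNNGC on both strands, because it is the element that the regulators and targets of this pathway have in common. RefSeq windows on GRCh38.p14, running from 250 bases before to 50 bases after the start, were at hand for 7 of the 9 genes (10 windows, since some genes have more than one start), not for HMOX1 and SLC7A11. A match was found in GCLM, TXNRD1 and KEAP1, that is 3 of 7 genes, beside 16.1% of 27305 genes and 13.3% of 35116 windows overall. NQO1, GCLC, SRXN1 and NFE2L2 had no match to these letters in these windows. Each match is shown on the strand of its gene with the 9 matching letters in capitals, either as written above or as their reverse complement. None overlapped the AP-1 letters TGANTCA, which 7.71% of all windows held. A match of letters is a description and not a site shown to be bound.
GCLM, chr1:93909445-93909474, minus strand, match at -34 to -26: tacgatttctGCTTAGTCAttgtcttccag
TXNRD1, first start, chr12:104215670-104215699, plus strand, match at -99 to -91: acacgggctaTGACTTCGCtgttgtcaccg
TXNRD1, first start, chr12:104215761-104215790, plus strand, match at -8 to 1: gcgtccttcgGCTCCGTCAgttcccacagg
TXNRD1, second start, chr12:104286920-104286949, plus strand, match at -102 to -94: gtggatttctGCTTTGTCAttctgactctg
KEAP1, second start, chr19:10502806-10502835, minus strand, match at -54 to -46: acttttattgTGACACGGCgggcgcccggc
KEAP1, second start, chr19:10502783-10502812, minus strand, match at -31 to -23: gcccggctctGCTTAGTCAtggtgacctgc
Positions are counted from the annotated start, whose first base is 1. GCLM, TXNRD1 and KEAP1 differed in their values across the groups, as given below, and so did NQO1, GCLC and NFE2L2, which had no match.

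Reads assigned to genes numbered 65266253 to 108002436 per library. Counting error was large for SRXN1, with 5 to 12 reads per library, and next largest for HMOX1, with 474 to 1627. For the other genes of the group it was smaller. The number of libraries also limited the precision. Intervals that such depth would give cover counting error only, and not the spread between libraries. The reads also carry no molecular identifiers. Of 9 epithelial and ductal markers, 8 were above 1 CPM (read counts relative to the TMM-scaled library total, TMM being the trimmed mean of M values) in every library, and the sum of all 9 was 6401 to 6589 CPM in parental and 10975 to 12397 CPM in resistant libraries. All 8 lung epithelial markers stayed under 1 CPM everywhere, and NKX2-1, SFTPA1, SFTPA2, SFTPB, SFTPD and SCGB1A1 were at 0. No A549 library was compared, so these markers do not settle which line was used. Of 14 immune, stromal, endothelial, acinar and endocrine markers 13 stayed under 1 CPM everywhere, the exception being COL1A1, and the sum of all 14 was 1.74 to 4.75 CPM. Reads outside annotated genes made up 4.82% and 4.94% of assignable reads in treated parental libraries and 4.72% and 5.41% in resistant libraries off the drug, against 6.16% to 6.34% in the other 4. This share differed between treated and untreated libraries in both lines, in opposite directions, and its part in the results was not tested.

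HMOX1 encodes haem oxygenase 1, which breaks haem down to biliverdin, carbon monoxide and iron (ENSG00000100292, chromosome 22, 35380361 to 35394214, plus strand, GRCh38). It was at 10.3 and 11.1 CPM in parental libraries without and 17.6 and 15.9 CPM with the drug, and at 7.02 and 7.30 CPM in resistant libraries without and 18.5 and 16.9 CPM with it. The resistant cells off the drug were thus lowest, the parental untreated cells came next, and the drug-exposed libraries of both lines were highest and overlapped. The counts behind these levels were 1127 and 1182, 1319 and 1230, 520 and 474, and 1248 and 1627.

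Differences between groups were tested on the raw counts by the quasi-likelihood method of edgeR, in one fit to all 8 libraries, and a gene was called at a Benjamini-Hochberg adjusted p under 0.05 over 16661 genes. In bulk libraries a change in the number of cells that express a gene and a change in its RNA per cell cannot be told apart.

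In parental cells HMOX1 rose 1.57-fold on indisulam (log2 fold change 0.65, SE 0.059, adjusted p = 5.5e-09). This comparison shares no library with the one by which HMOX1 was picked. In resistant cells the fold was 2.47 (log2 1.30, SE 0.066), the value for which it was chosen. Among genes called in that contrast whose libraries did not overlap and whose mean log2 CPM reached 3, PIF1 at 1.29 and ZNF850 at 1.28 came just after HMOX1, followed by SLC9A3-AS1 at 1.22 and ATF3 at 1.18. The HMOX1 response was 0.65 log2 units larger (SE 0.089) in resistant cells, a description because it contains the contrast used for the choice. The 2 lines started from different levels, with resistant cells 0.58 log2 units lower off the drug (SE 0.068), and they differed by 0.08 log2 units (SE 0.057) on it. The latter was 0.16 with library totals alone and with a filter at a mean CPM of 1, and 0.17 without parental indisulam replicate 1. Both line differences share libraries with the contrast of the choice, so HMOX1 was not tested in them.

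**Figure D1:**
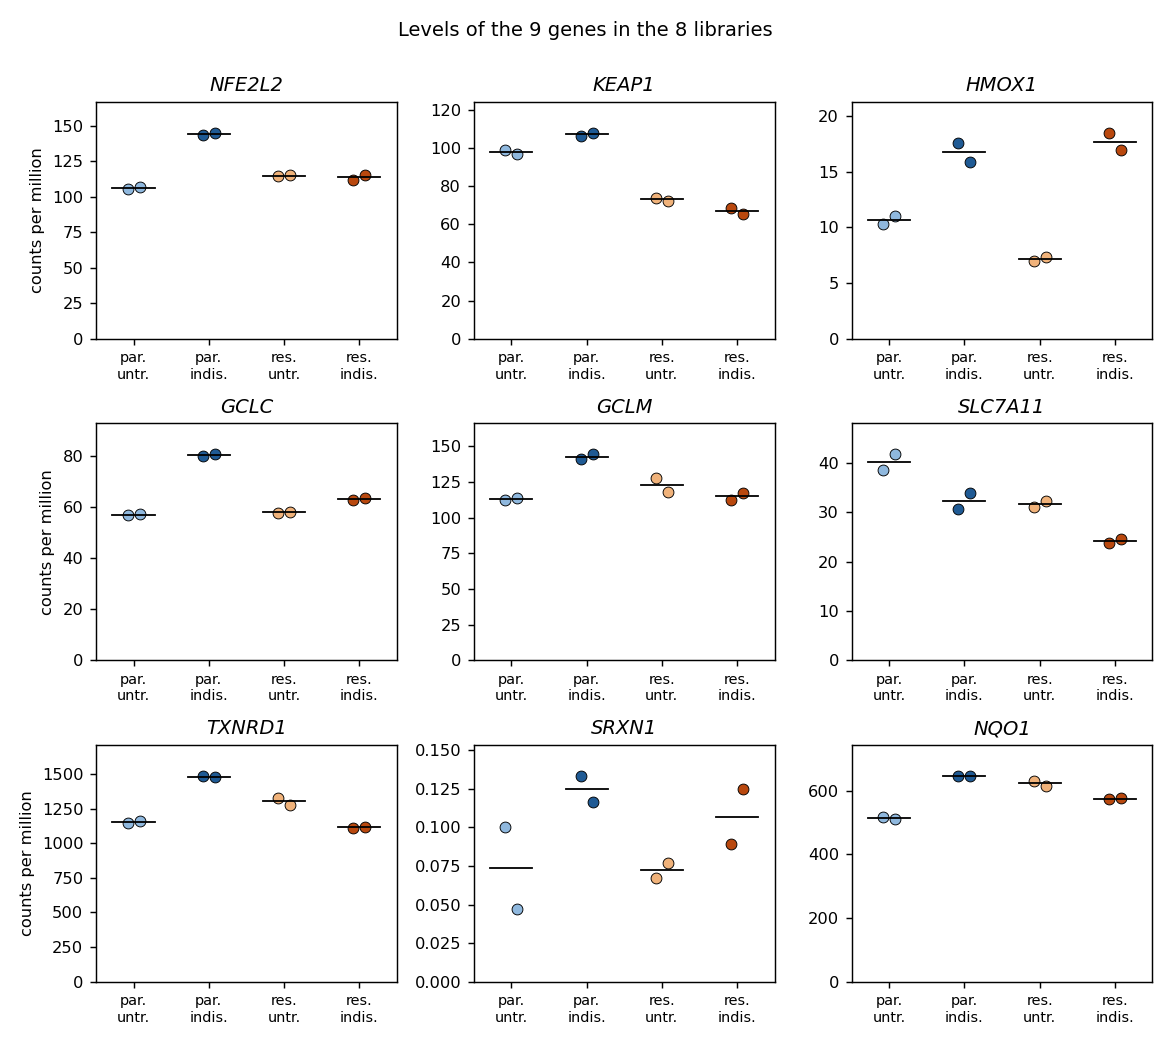
Levels of the 9 genes in CPM (vertical axes, each starting at 0) in the 4 groups (horizontal axes; par., parental; res., resistant; untr., untreated; indis., indisulam). Each point is 1 library and each bar the mean of 2; HMOX1 is lowest in resistant untreated cells at 7.02 and 7.30 CPM, while NFE2L2, KEAP1, GCLC, GCLM, TXNRD1 and NQO1 are highest in parental cells on indisulam.

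NFE2L2, the NRF2 gene (ENSG00000116044, chromosome 2, 177218667 to 177392756, minus strand), was at 106 and 107 CPM in parental libraries without and 144 and 145 CPM with the drug, and at 115 and 115 CPM in resistant libraries without and 112 and 116 CPM with it. The parental libraries on the drug stood above the other 6, and both groups of resistant cells overlapped. It rose by 0.44 log2 units on indisulam in parental cells (SE 0.028, adjusted p = 1e-11), against a resistant value of -0.01 (SE 0.029) that becomes 0.04 when scaled by library totals alone. Resistant cells were 0.11 log2 units higher off the drug (adjusted p = 0.0018) and 0.34 lower on it (log2 difference -0.34, adjusted p = 2e-10). In the annotation used here, 38.4% of the NFE2L2 exon bases are shared with other genes. The largest partner, HNRNPA3 on the opposite strand, held 82.2% of the reads of the pair, and the strand setting of the counting is not given in the sources used here, so NFE2L2 values are uncertain to that extent.

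KEAP1, the adaptor that presents NRF2 for degradation (ENSG00000079999, chromosome 19, 10486125 to 10503558, minus strand), was at 99.0 and 96.9 CPM in parental untreated and 107 and 108 CPM in parental indisulam libraries. In the resistant line it was at 74.1 and 72.2 CPM off the drug and at 68.8 and 65.3 CPM on it. No groups overlapped, and all 4 resistant libraries lay below all 4 parental ones. The line difference was -0.42 log2 units off the drug (SE 0.032, adjusted p = 4.1e-11) and -0.68 on it (SE 0.032, adjusted p = 4.7e-15). The rise on indisulam in parental cells was small, 0.13 log2 units (SE 0.031, adjusted p = 0.00081), and was not called with library totals alone, where it was 0.07 (adjusted p = 0.068). The resistant drug response was -0.13 (SE 0.033).

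Glutathione synthesis starts with glutamate-cysteine ligase, made of the catalytic subunit GCLC and the modifier subunit GCLM, and depends on cystine taken up through SLC7A11. GCLC (ENSG00000001084, chromosome 6, 53497341 to 53616970, minus strand) was at 56.9 and 57.1 CPM in parental libraries without and 80.0 and 80.6 CPM with the drug, and at 57.6 and 58.1 CPM in resistant libraries without and 62.5 and 63.3 CPM with it. Parental cells on the drug were well above the rest, and the resistant libraries on the drug lay above those off it. The parental rise was 0.49 log2 units (SE 0.03, adjusted p = 4e-12), beside 0.12 (SE 0.031) in resistant cells. Off the drug the lines differed by 0.02 (SE 0.031, adjusted p = 0.57), a value that changes sign with library totals alone, and on it resistant cells were lower (-0.35, adjusted p = 3.6e-10).

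GCLM (ENSG00000023909, chromosome 1, 93885199 to 93909456, minus strand) was at 112 and 114 CPM in parental libraries without and 141 and 144 CPM with the drug, and at 128 and 118 CPM in resistant libraries without and 113 and 118 CPM with it. Parental cells on the drug were again highest, and parental untreated and resistant indisulam libraries overlapped. GCLM rose by 0.34 log2 units on indisulam in parental cells (SE 0.034, adjusted p = 2.3e-08), while the resistant value was -0.09 (SE 0.034). It was higher in resistant cells off the drug (0.12, adjusted p = 0.0045) and lower on it (-0.31, adjusted p = 3.7e-08). The first of these rests on the higher of the resistant untreated libraries, without which it was 0.06 (adjusted p = 0.16).

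SLC7A11, the transport subunit of the cystine-glutamate exchanger (ENSG00000151012, chromosome 4, 138164097 to 138242349, minus strand), went the other way. It was at 38.7 and 41.8 CPM in parental libraries without and 30.7 and 33.9 CPM with the drug, and at 31.2 and 32.3 CPM in resistant libraries without and 23.7 and 24.6 CPM with it. Parental untreated cells were highest, resistant cells on the drug lowest, and the 2 middle groups overlapped. It was lower on indisulam in parental cells (-0.31 log2 units, SE 0.047, adjusted p = 1.4e-05), and the resistant value was -0.39 (SE 0.051). Resistant cells were lower without the drug (-0.34, adjusted p = 4.5e-06) as well as with it (-0.42, adjusted p = 6.2e-07). SLC7A11 was the only gene of the 9 that was called lower on the drug in parental cells.

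TXNRD1 reduces thioredoxin, and SRXN1 restores overoxidised peroxiredoxins. TXNRD1 (ENSG00000198431, chromosome 12, 104215779 to 104350307, plus strand) was at 1148 and 1162 CPM in parental libraries without and 1487 and 1477 CPM with the drug, and at 1330.0 and 1275 CPM in resistant libraries without and 1112 and 1118 CPM with it. No groups overlapped, and the drug-exposed groups held the highest place in the parental and the lowest in the resistant line. The parental rise was 0.36 log2 units (SE 0.029, adjusted p = 3.4e-10) and the resistant value -0.22 (SE 0.029). Resistant cells were higher off the drug (0.17, adjusted p = 1.3e-05), whereas on it they were lower (-0.41, adjusted p = 7.2e-12).

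SRXN1 (ENSG00000271303, chromosome 20, 646615 to 653200, minus strand) had 11 and 5 reads in parental libraries without and 10 and 9 with the drug, and 5 and 5 in resistant libraries without and 6 and 12 with it. In the annotation used here 90.7% of its exon bases are also exon of ENSG00000270299, a longer gene on the same strand that had 0 reads in all libraries. If the counting set aside reads that fit both genes, nearly all SRXN1 reads would be missing, so these counts do not give its level. Neighbouring groups overlapped in each case, and no comparison was called (parental drug response 0.74 log2 units, SE 0.49, adjusted p = 0.2).

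NQO1, a quinone reductase and a standard readout of NRF2 (ENSG00000181019, chromosome 16, 69706996 to 69726668, minus strand), was at 516 and 510.1 CPM in parental untreated and 644 and 646 CPM in parental indisulam libraries. In resistant cells it was at 631 and 613 CPM off the drug and 573 and 577 CPM on it. No groups overlapped, and parental untreated cells were lowest. NQO1 rose by 0.33 log2 units in parental cells on indisulam (SE 0.027, adjusted p = 5.5e-10), with a resistant value of -0.11 (SE 0.027). Without the drug resistant cells were higher (0.28, adjusted p = 3.8e-09), and with it they were lower (-0.17, adjusted p = 8.3e-06).

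**Figure D2:**
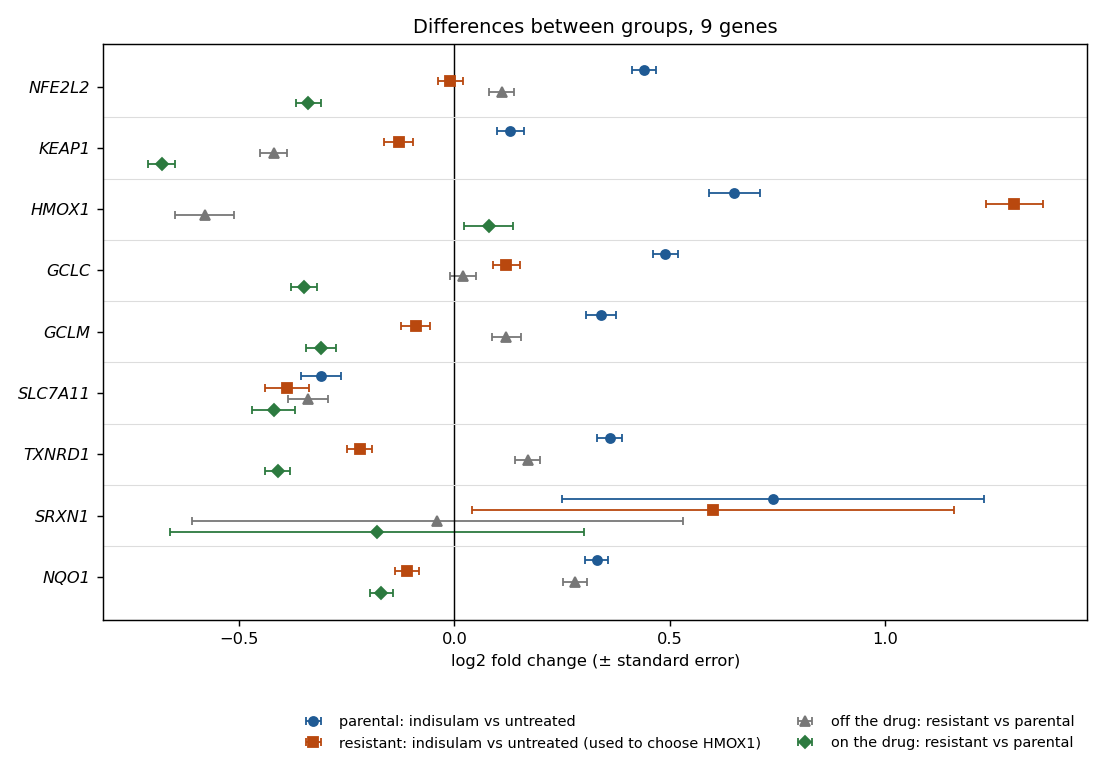
Log2 fold change (horizontal axis, bars are ± standard error of the model fitted to 8 libraries) of each of the 9 genes in 4 comparisons. Circles give parental indisulam against untreated, squares resistant indisulam against untreated, triangles resistant against parental off the drug and diamonds the same on the drug; HMOX1 reaches 0.65 and 1.30 on the drug, whereas NQO1, GCLM, TXNRD1 and KEAP1 lie above 0 in parental and below 0 in resistant cells.

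Counted together, 7 of the 9 genes were called higher and 1 lower on indisulam in parental cells, with a median log2 fold change of 0.36. Among all 16661 genes tested 31.6% were called higher and 26.6% lower, with a median of 0.01. With library totals alone KEAP1 drops out, and the share of all calls that were higher moved from 54.3% to 42%. Against a minimum effect of 0.5 log2 units, HMOX1 was the only one of the 9 called. Among all 16661 genes that test called 140 higher and 902 lower.

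In resistant cells 2 of the 9 genes were called higher and 5 lower on the drug (median -0.09). Over all genes the shares were 24.9% and 25.8%, and with library totals alone the higher share of the calls moved from 49.1% to 59.7%. HMOX1 was picked in this contrast, and nothing is read from the count. As descriptions, the difference between the responses of the lines (resistant minus parental) was -0.45 for NQO1 (SE 0.038), -0.43 for GCLM (SE 0.048), -0.37 for GCLC (SE 0.043), -0.58 for TXNRD1 (SE 0.04), -0.45 for NFE2L2 (SE 0.041) and -0.26 for KEAP1 (SE 0.045). SLC7A11, whose values were of like size in both lines, had -0.07 (SE 0.069). Over all 16661 genes the median absolute difference of the responses was 0.275 log2 units, with 3774 genes called higher and 4577 lower.

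Of the 8 genes other than HMOX1, 4 were called higher in resistant than in parental cells off the drug (NQO1, TXNRD1, GCLM, NFE2L2) and 2 lower (KEAP1, SLC7A11), with a median of 0.07. Over all genes 30.3% were called higher and 29.9% lower. On the drug 0 of the 8 were called higher and 7 lower, all but SRXN1, with a median of -0.35, beside 34.6% and 34.9% over all genes. The comparisons share groups with one another: parental untreated cells are the reference of both the parental drug response and the line difference off the drug.

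Levels can be compared between genes per length only, here as reads per kilobase of merged exons on the CPM scale (RPKM). In parental untreated cells NQO1 and TXNRD1 were highest at 173 ± 1.41 and 172 ± 1.49 RPKM (SD, n = 2), indistinguishable from each other. KEAP1 was at 27.4 ± 0.412, GCLM at 20.8 ± 0.213, NFE2L2 at 7.10 ± 0.0714, GCLC at 6.61 ± 0.0134, HMOX1 at 4.63 ± 0.234 and SLC7A11 at 4.17 ± 0.233 RPKM. With the exons of the longest transcript as length, TXNRD1 (291 RPKM) stood above NQO1 (203 RPKM), and NFE2L2 (20.8 RPKM) and GCLC (15.1 RPKM) were over 2 times higher, since many transcripts are merged for both. HMOX1 was at 3.10 ± 0.0855 RPKM in resistant untreated and 7.68 ± 0.488 RPKM in resistant indisulam cells, beside 3.29 ± 0.0788 and 2.51 ± 0.0653 RPKM for SLC7A11. Their order off the drug depends on the length used, since HMOX1 was at 4.22 RPKM there with the longest transcript, above SLC7A11, whose value was the same with either length.

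**Figure D3:**
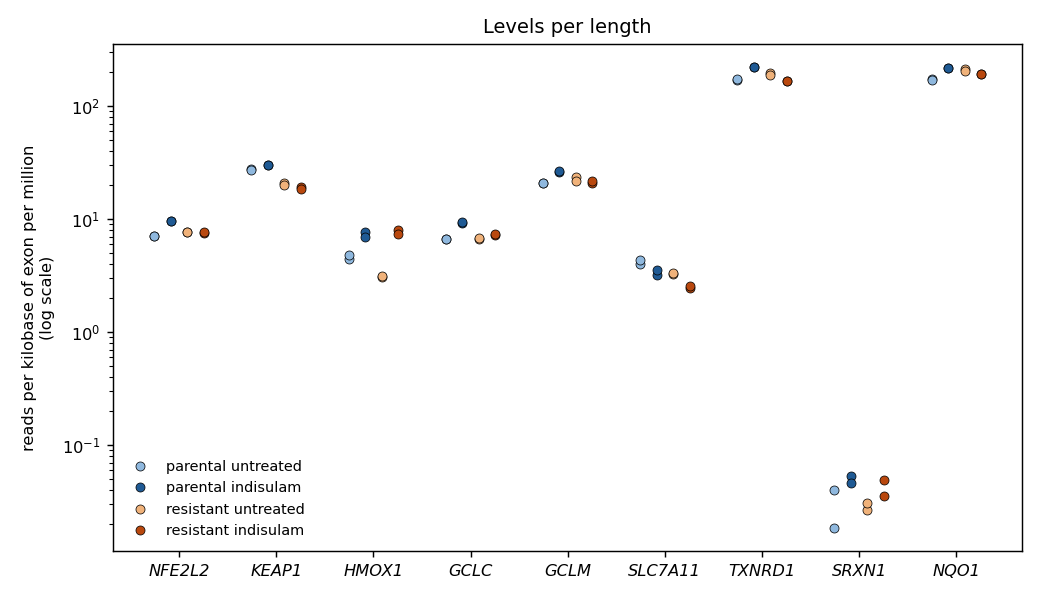
RPKM over merged exons (vertical axis, log scale) of the 9 genes, with 1 point per library and 1 colour per group. NQO1 and TXNRD1 lie between 166 and 222 RPKM in all groups, and SRXN1, most of whose exon bases are shared with another gene, lies under 0.1.

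The genes whose pattern over the 8 libraries was most like that of HMOX1, by the root mean square difference between log2 CPM profiles centred on their means among 12064 genes with a mean CPM of at least 1, were QRICH2 (0.131), FERMT3 (0.148), DOK3 (0.156), LAMA2 (0.164) and ATF3 (0.173). ATF3, a stress-induced transcription factor, was at 0.22 on indisulam in parental cells and -0.73 in resistant cells off the drug relative to parental untreated cells. None of the other 8 genes was among the 5, and SRXN1, under 1 CPM, could not be. The measure weighs the size of changes and uses the resistant libraries on which HMOX1 was picked, so nothing is read from this. For NQO1 the nearest were YARS1 (0.0172), YWHAB (0.0222), ZNHIT6 (0.0225), FAM107B (0.0246) and FNTB (0.0307), whose differences from parental untreated cells lay at 0.28 to 0.35 in parental indisulam and 0.23 to 0.28 in resistant untreated cells.

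Of 18 other genes counted here as regulators of KEAP1 and NRF2, 14 were called higher and 1 lower on indisulam in parental cells (median 0.22, beside 31.6% and 26.6% of all genes). The 18 include NFE2L1 and NFE2L3, which are relatives of NFE2L2. The ligase scaffold CUL3 rose by 0.33 log2 units (SE 0.029, adjusted p = 1.2e-09). The repressor BACH1 rose by 0.30 (SE 0.034, adjusted p = 7.1e-08), and the autophagy receptor SQSTM1, which sequesters KEAP1, by 0.23 (adjusted p = 5.4e-07). Of the small MAF partners, MAFF rose by 0.26 and MAFG by 0.24, while MAFK was at 0.11 (adjusted p = 0.077). The 1 regulator called lower was SYVN1 at -0.15, a ligase of the endoplasmic reticulum, and its call was lost with the replicate block (-0.15, adjusted p = 0.059) and without either parental untreated library or parental indisulam replicate 2 (-0.17 to -0.12).

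In resistant cells on the drug 8 of these 18 regulators were called higher and 5 lower (median 0.03, beside 24.9% and 25.8%), with MAFF at 0.31, MAFK at 0.24 and BACH1 at 0.01. Off the drug, resistant cells had 5 regulators called higher and 5 lower than parental cells (beside 30.3% and 29.9%), with MAFK at -0.55 (adjusted p = 1e-06), MAFF at -0.29 (adjusted p = 1.2e-07) and NFE2L3 at 0.68 (adjusted p = 5e-14). On the drug 3 were called higher and 13 lower (median -0.19, beside 34.6% and 34.9%). BTRC, a substrate receptor of another NRF2 ligase, was at -0.58 (adjusted p = 8e-12), SQSTM1 at -0.39 and BACH1 at -0.20. MAFK and NFE2L3 overlap TMEM184A and HNRNPA2B1 on the opposite strand, which took 66.1% and 96.5% of the reads of MAFK plus TMEM184A and of NFE2L3 plus HNRNPA2B1, so both are uncertain.

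Among 37 further NRF2 targets, 30 were tested. In parental cells 16 were called higher and 2 lower on indisulam (median 0.14, beside 31.6% and 26.6% of all genes). Malic enzyme ME1 rose by 0.32 log2 units, glutathione reductase GSR by 0.24, PRDX1 by 0.20, TXN by 0.18 and PGD by 0.11. The call of PGD was lost with library totals alone and with a filter at a mean CPM of 1. ABCC3, an efflux transporter of organic anions, averaged 36.8 ± 0.247 CPM without and 14.6 ± 0.427 CPM with the drug (SD, n = 2). Its difference of -1.34 log2 units (SE 0.047, adjusted p = 2.7e-15) was the largest of the list in this comparison.

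In resistant cells the same 30 targets had 9 called higher and 14 lower on the drug (median -0.05, beside 24.9% and 25.8%), with ABCC3 at -1.67 and TXN at -0.25. Off the drug 17 were called higher and 8 lower in resistant than in parental cells (median 0.20, beside 30.3% and 29.9%). GSTP1, a glutathione transferase, was 1.71 log2 units higher (SE 0.036, adjusted p = 6e-22), ABCC3 1.21 higher, and thioredoxin TXN lower (-0.77, adjusted p = 2.4e-16). On the drug 12 were called higher and 15 lower (median -0.11, beside 34.6% and 34.9%), with TXN at -1.21 (SE 0.031) and GSTP1 at 1.60 (SE 0.036). The 7 targets not tested were at or near 0, among them AKR1B10 and AKR1C1 with group means of at most 0.0564 CPM. UGT1A6, also among them, shares 44.2% of its exon bases with other genes on the same strand, so its counts may not give its level.

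Of 24 genes of haem and iron handling, 9 were called higher and 6 lower on indisulam in parental cells (median 0.05, beside 31.6% and 26.6% of all genes). FTL, FTH1 and BLVRB are also counted among the further NRF2 targets above. ABCB6, among those called lower, shares 54.6% of its exon bases with another gene on the same strand, so its counts may not give its level. The ferritin chains FTL and FTH1, which store the iron that haem oxygenase releases, rose by 0.27 and 0.28 log2 units, and the transferrin receptor TFRC by 0.29. HMOX2, the constitutive haem oxygenase, was at 0.01 (adjusted p = 0.8), and the biliverdin reductases BLVRA and BLVRB were at 0.21 (adjusted p = 0.14) and 0.01 (adjusted p = 0.88). PPOX, of the haem synthesis pathway, was lower (-1.01, adjusted p = 3.8e-11), but B4GALT3 on the opposite strand held 88.6% of the reads of that pair.

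In resistant cells 5 of the 24 were called higher and 9 lower on the drug (median -0.04, beside 24.9% and 25.8%), with FTL at 0.12, FTH1 at -0.16, HMOX2 at 0.05, BLVRA at 0.29, BLVRB at -0.20 and the iron-sensing aconitase ACO1 at 0.59. With library totals alone the number called higher in that contrast was 10. Off the drug 10 were called higher and 8 lower in resistant than in parental cells (median 0.02, beside 30.3% and 29.9%). BLVRA was 1.08 (SE 0.11, adjusted p = 7.2e-09) and BLVRB 0.66 log2 units higher (adjusted p = 8.9e-13), and ACO1 was lower (-0.86, adjusted p = 4.1e-17). On the drug 11 were called higher and 12 lower (median -0.08, beside 34.6% and 34.9%).

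Among glutathione and peroxide enzymes 22 of 24 were tested. In parental cells 9 were called higher and 6 lower on the drug (median 0.05, beside 31.6% and 26.6% of all genes), with catalase CAT at 0.72 (SE 0.04, adjusted p = 1.2e-12) and glutathione synthetase GSS at -0.59 (SE 0.03, adjusted p = 2.8e-13). In resistant cells 6 were called higher and 15 lower (median -0.12, beside 24.9% and 25.8%), with CAT at 0.54 and TXNIP, an inhibitor of thioredoxin, at -0.89. Off the drug 9 were called higher and 6 lower in resistant cells (median 0.05, beside 30.3% and 29.9%), with TXNIP at 2.49 (SE 0.052, adjusted p = 6.4e-17). On the drug 7 were called higher and 14 lower (median -0.16, beside 34.6% and 34.9%), among them the lipid peroxidase GPX4 at -0.88 (adjusted p = 2.4e-18).

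SLC7A11 is also a target of the amino acid stress factor ATF4. A list of 16 genes held ATF4 itself and targets that include SLC7A11. On indisulam in parental cells 6 of these were called higher and 6 lower (median 0.00, beside 31.6% and 26.6% of all genes). ATF4 was among those called higher (0.19, adjusted p = 4.9e-06). ASNS, among those called lower, shares 49.3% of its exon bases with other genes on the same strand, so its counts may not give its level. SLC3A2, the partner subunit of SLC7A11, rose by 0.58 log2 units (SE 0.029, adjusted p = 1.5e-13), opposite in direction to SLC7A11. In resistant cells 7 were called higher and 4 lower (median 0.10, beside 24.9% and 25.8%), with ATF3 at 1.18 and SLC3A2 at 0.28. Off the drug 8 were called higher and 7 lower in resistant than in parental cells (median 0.12, beside 30.3% and 29.9%), and on it 9 and 4 (median 0.25, beside 34.6% and 34.9%).

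**Figure D4:**
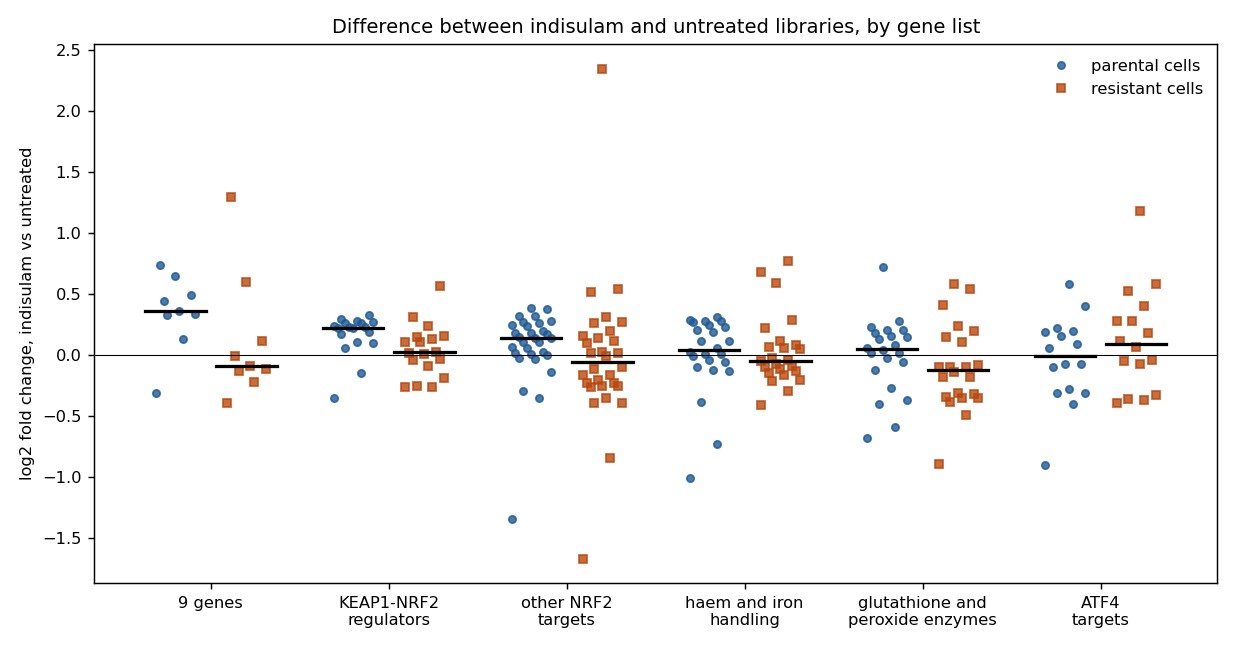
Log2 fold change on indisulam (vertical axis) of each tested gene of 6 lists, in parental (circles) and resistant cells (squares); black bars are medians. The median of the 9 genes is 0.36 in parental and -0.09 in resistant cells, and that of the 18 regulators 0.22 and 0.03.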

How the data were processed

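Gene expression was measured by sequencing polyadenylated RNA with stranded paired-end libraries. The authors deposited raw counts of reads per Ensembl gene for each of the 8 libraries. Per the labels and the study's methods, reads were trimmed with SeqPurge and aligned with HISAT2 2.2.1 to GRCh38, and Picard and HTSeq are named in the submitters' processing notes. The annotation release and strand setting of the counting are not given in the sources used here. Reads marked as duplicates, 18.5% to 25.1% of reads in genes plus duplicates, stood on a separate line outside the gene counts. Such removal can cap the counts of abundant genes.

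Symbols, positions and exon lengths came from GENCODE 44 on GRCh38 (60419 of 60675 identifiers matched, SOD2 not among them), and promoters from RefSeq. The analysis used edgeR 4.0.16 under R 4.3.3, with filterByExpr, TMM scaling, and a robust quasi-likelihood fit of 4 group means to all 8 libraries (4 residual degrees of freedom). P-values were adjusted by Benjamini-Hochberg over 16661 genes and called under 0.05. HMOX1 was to be tested in all comparisons but the resistant drug response. It was tested in the parental one alone, since the others hold the resistant libraries on which it was picked. The standard error is the log2 fold change divided by the square root of F. An exact permutation test of 2 against 2 libraries cannot go below p = 0.333 and was not used. The code was tested on simulated counts. Figures used matplotlib 3.10.9.

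The 9 genes and all lists were chosen with earlier results of these data known. The lists overlap, so their counts are not independent. FTL, FTH1 and BLVRB are counted both as NRF2 targets and as haem and iron genes. CHAC1 is counted both with the glutathione enzymes and with the ATF4 targets, and SLC7A11 both in the 9 and with the ATF4 targets. The genes named are these 9, further regulators and targets named whatever their values (such as BACH1, CUL3 and FTL), from each list and comparison at most the 2 largest rises and 2 largest falls among called genes whose mean CPM reached 1, and the 5 genes nearest in pattern to HMOX1 and to NQO1. Not every gene that met the rule is described, and some results are not reported here. Alternatives were DESeq2 size factors, library totals, the Wald test of DESeq2 1.42.0, the replicate block, no filter on low counts, a filter at a mean CPM of 1, fits to the 2 groups of a comparison only, a test against 0.5 log2 units, and each library left out. Same-numbered libraries of different groups did not deviate together (correlations from -0.058 to 0.0272), so the numbers do not pair them. Libraries of a group differed by more than sampling noise (mean chi-square per gene 2.04 to 5.87).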

Additional observations from a re-analysis of the deposited data

Results flagged for a closer look

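For NQO1, GCLM, TXNRD1 and KEAP1 both parental libraries on indisulam lay above both untreated ones. Both resistant libraries on the drug lay below both resistant untreated ones. For GCLM the resistant groups nearly met, with 117.5 CPM in a library on the drug and 118.0 CPM in one off it. How many of all genes show this pattern was not counted, so nothing is read from the number of genes that do. The difference of the responses, resistant minus parental, was -0.45 log2 units for NQO1, -0.43 for GCLM, -0.58 for TXNRD1 and -0.26 for KEAP1. This difference was not tested, because it contains the contrast by which HMOX1 was picked. Its median absolute value over all 16661 genes was 0.275 log2 units. The share of reads outside genes moved with these groups, from 6.22% and 6.34% to 4.82% and 4.94% in parental cells and from 4.72% and 5.41% to 6.16% and 6.21% in resistant cells, and its part was not tested.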

How the results depend on the processing

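With the replicate block 7 of the 9 genes were called higher and 1 lower in the parental drug response, and of the 8 other than HMOX1, 4 and 2 were called off the drug and 0 and 7 on it, as without the block. Among the genes named it ended the parental calls of SYVN1 and ALAD. Tested against 0.5 log2 units, 1 gene (HMOX1) was called higher and 0 lower on the drug in parental cells, 0 and 0 differed off the drug, and 1 was lower on it (KEAP1). The difference between the lines on the drug (resistant minus parental) of SLC3A2 turned from -0.07 to 0.02 with library totals. It was 0.01 with a filter at a mean CPM of 1. Among the alternatives that kept every library, its call held only with the replicate block. Library totals moved the median of all genes in the difference of the responses from 0.01 to 0.13. On that scale the differences were -0.33 for NQO1, -0.31 for GCLM, -0.47 for TXNRD1 and -0.14 for KEAP1, and that of SLC7A11 changed sign. The cause of these shifts was not tested. The limits are 2 technical libraries per group, the unknown strand setting, and the reads that SRXN1 and some listed genes share with other genes. Among the latter, ASNS, ABCB6 and UGT1A6 share 49.3%, 54.6% and 44.2% of their exon bases on the same strand. Their counts may therefore not give their levels.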
